A study of Mus musculus with 9 samples.

Results

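RNA levels of 10 genes of TGF-beta and BMP signalling were examined in AML12 cells, a mouse hepatocyte line, after knockdown of *Srrm2*, which encodes a scaffold protein of nuclear speckles. The genes were taken by symbol from a list of 3 ligands (*Tgfb1*, *Tgfb2*, *Tgfb3*), 2 receptors (*Tgfbr1*, *Tgfbr2*), 3 Smads (*Smad3*, *Smad6*, *Smad7*) and 2 target genes (*Id1*, *Id3*). All 10 are among the 13259 genes that appear in both deposited tables. RNA-seq was done on 9 libraries in 3 groups of 3, infected with lentivirus carrying a control hairpin, *Srrm2* shRNA 1 or *Srrm2* shRNA 2. Cells with either hairpin against *Srrm2* were harvested on day 5 of infection, and no day is given for the control cells. All groups were grown with serum, an insulin, transferrin and selenium supplement and dexamethasone, and the labels name no group without a hairpin. AML12 is a single established line, made from a mouse that carries a transgene for TGF-alpha, which despite its name is a ligand of the EGF receptor and not of the receptors described here.

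TGF-beta ligands are secreted in a latent form, and once released they bind TGFBR2, which then recruits and phosphorylates TGFBR1. The activated receptor phosphorylates SMAD2 and SMAD3, which enter the nucleus with SMAD4, while BMP receptors act through SMAD1, SMAD5 and SMAD9. SMAD6 and SMAD7 inhibit the receptors and are themselves induced by the pathway, and ID1 and ID3 are transcriptional inhibitors whose genes respond to BMP. In liver, TGF-beta limits hepatocyte growth and drives fibrosis, and BMP signalling sets the expression of hepcidin.

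The values are the authors' mean normalized counts, 1 per gene and table, each averaged over the libraries of control cells and of 1 hairpin. A library's own value, a standard deviation and a mean of control cells alone were not used, so no value below carries an error and no difference was tested. In such bulk RNA, fewer cells expressing a gene and less RNA per cell cannot be told apart. For the same reason the level of a gene with a hairpin is not set against control cells here. The shRNA 1 table lists 13424 genes whose means sum to 6144608, and the shRNA 2 table lists 13478 genes whose means sum to 6393456. The 10 genes hold 0.107% and 0.105% of these sums. *Srrm2* itself, on chromosome 17 of mm9, had mean normalized counts of 3428 and 3759 in the shRNA 1 and shRNA 2 tables. Pooled with control cells, these values do not check the knockdown.

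The labelled cell type was compared with marker genes. Of 14 hepatocyte markers, 13 are listed, with the highest levels per kb for *Krt18*, *Krt8* and *Ttr* (7034, 4594 and 2049 mean normalized counts per kb of exon in the shRNA 1 table), and *Asgr1*, an asialoglycoprotein receptor subunit of mature hepatocytes, is not listed. Ductal markers were present too, as *Krt19*, *Krt7* and *Sox9* had 1537, 192 and 162 per kb in that table, while *Epcam* is not listed. Of 8 stellate cell or fibroblast markers, *Col1a1* and *Des* are listed, at mean normalized counts of 3.85 and 8.03, and *Col1a2*, *Col3a1*, *Acta2*, *Lrat*, *Pdgfrb* and *Reln* are not. None of 5 endothelial markers (*Pecam1*, *Cdh5*, *Kdr*, *Tek*, *Stab2*) is listed, and of 5 macrophage or leukocyte markers *Cd68*, *Csf1r* and *Ptprc* are, with a summed mean of 56.6, whereas *Emr1* and *Clec4f* are not.

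Levels of different genes were compared per kb of exon, with the exons of all transcripts of a gene merged. *Smad3*, *Tgfbr1* and *Id1* had the highest levels, between 288 and 326 mean normalized counts per kb in the shRNA 1 table and between 226 and 398 in the shRNA 2 table. *Smad6* was the lowest, at 17.8 and 22.2. The highest member thus exceeded the lowest 18.3-fold in the shRNA 1 table and 17.9-fold in the shRNA 2 table. Against a median of 43.1 per kb over all listed genes of the shRNA 1 table, 7 members were higher and *Id3*, *Tgfb2* and *Smad6* lower, and in the shRNA 2 table, with a median of 44.8, *Id3* was also above it. The order of the 10 genes was the same in both tables except that *Tgfbr1* and *Id1* changed places. With no spread between libraries, it cannot be said which neighbours in this order differ.

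**Figure D1:**
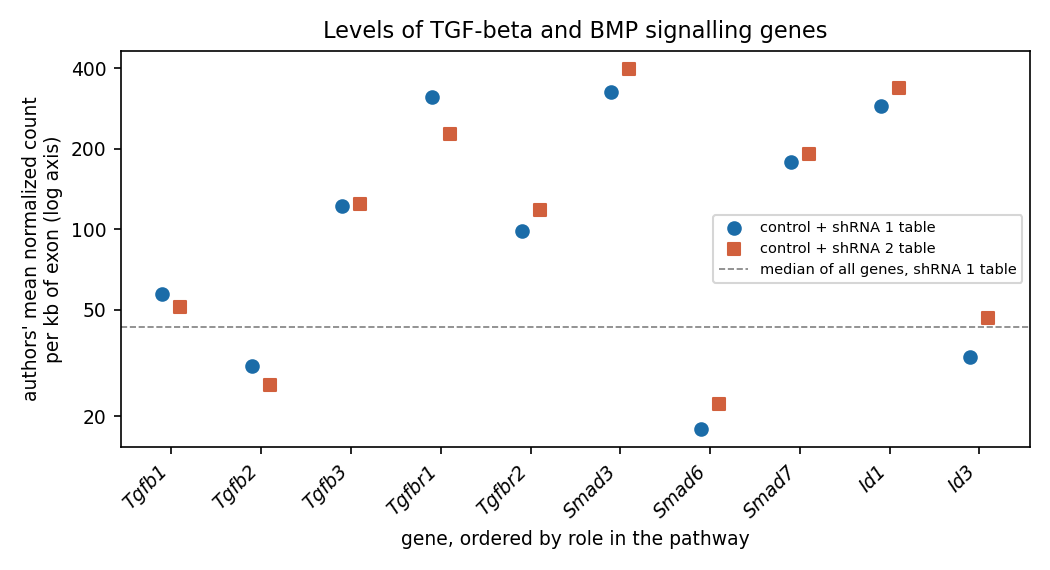
Authors' mean normalized count per kb of exon (log axis) of the 10 genes, ordered by role, in the table of control and shRNA 1 libraries (circles) and that of control and shRNA 2 libraries (squares). The dashed line is the median of all genes in the shRNA 1 table, 43.1 per kb; *Smad3*, *Tgfbr1* and *Id1* lie highest and *Smad6* lowest in both tables, and no error bars are drawn because each point is a pooled mean.

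The tables are scaled separately, so the ratio of the shRNA 2 mean to the shRNA 1 mean of each gene was divided by its median over all 13259 shared genes, a factor of 1.05. If the same control libraries entered both means with 1 scale factor, a ratio below or above this median reflects lower or higher RNA with shRNA 2 than with shRNA 1. Controls dilute it, so the fold between the hairpins is then at least as large as the fold between the tables. On this log2 scale, with a value of 0 for the median gene, 6 members were higher and 4 lower in the shRNA 2 table. Of the 8 members whose means in both tables were 100 or more, 1 (*Tgfbr1*) had a ratio of at least 5:4 in either direction, the limit used below. Over all 7757 genes at that mean, 4.18% did, 2.67% lower and 1.51% higher in the shRNA 2 table. The median size of the log2 ratio was 0.20 over the 8 members and 0.09 over the 7757 genes. These medians were not matched for level, on which the spread of ratios depends, and their difference was not tested.

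*Tgfbr1* encodes the type I receptor, the kinase that phosphorylates SMAD2 and SMAD3. In mm9 it occupies 47366094 to 47427803 of chromosome 4, on the + strand, and its longest coding transcript has 9 exons. Its mean normalized count was 2037 in the shRNA 1 table and 1477 in the shRNA 2 table. The log2 ratio of the shRNA 2 table to the shRNA 1 table was -0.54, or 1.45-fold lower. Among the 1392 genes whose mean lay within 2-fold of that of *Tgfbr1*, the middle 95% of log2 ratios ran from -0.29 to 0.24, and 0.287% of genes were lower than *Tgfbr1*. It was the only member outside such a range, as the other 9 lay within the one for their own level. Under the reading of shared controls, shRNA 2 libraries held on average 1268 fewer normalized counts of *Tgfbr1* than shRNA 1 libraries, on the scale of the shRNA 1 table.

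*Tgfbr2*, the type II receptor that binds the ligand, went the other way in the ratio. It lies on the - strand of chromosome 9, from 115993415 to 116084383, and had mean normalized counts of 793 and 950 in the shRNA 1 and shRNA 2 tables. Its log2 ratio was 0.19, or 1.14-fold higher in the shRNA 2 table, with 5.73% of 2741 genes of like mean above it. Per kb, *Tgfbr1* exceeded *Tgfbr2* 3.18-fold in the shRNA 1 table and 1.93-fold in the shRNA 2 table. The balance of the 2 receptor RNAs thus differed between the tables, with more *Tgfbr1* than *Tgfbr2* in both.

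The 3 ligand genes were all lower in the shRNA 2 table after scaling. *Tgfb3* was the most abundant of them, with 413 and 421 mean normalized counts, or 122 and 124 per kb, which is 2.14-fold and 2.44-fold the level of *Tgfb1*. Its log2 ratio of -0.05 was near that of the median gene, and without the scaling it was 0.03. *Tgfb1*, on chromosome 7 from 26472021 to 26490096, had means of 146 and 130 and a log2 ratio of -0.23. *Tgfb2*, on chromosome 1 from 188447065 to 188529871, had means of 149 and 126 and a log2 ratio of -0.31, just inside the 5:4 limit at 1.24-fold lower. Among genes of like mean, 8.11% were lower than *Tgfb1* in this ratio and 4.68% lower than *Tgfb2*. Both were therefore toward the lower end of their level class without leaving its middle 95%.

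*Smad3*, the receptor-activated Smad of the TGF-beta branch, had mean normalized counts of 1807 and 2203 in the shRNA 1 and shRNA 2 tables. Its log2 ratio was 0.21, or 1.16-fold higher in the shRNA 2 table, and 3.17% of 1200 genes of like mean were above it. Under the reading of shared controls this is 573 more normalized counts with shRNA 2 than with shRNA 1. *Smad3* (63494574 to 63605801) and *Smad6* (63800953 to 63869866) are neighbours on the - strand of chromosome 9, with 195 kb between them, and *Smad6* had 56.0 and 69.6 mean normalized counts. The log2 ratio of *Smad6*, 0.24, was close to that of *Smad3*, but at this lower level 10.8% of 2902 genes of like mean were above it. The other inhibitory Smad, *Smad7*, had 806 and 862 mean normalized counts and a log2 ratio of 0.02, near the median gene. Per kb, *Smad7* exceeded *Smad6* 9.99-fold in the shRNA 1 table and 8.59-fold in the shRNA 2 table.

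The target genes *Id1* and *Id3*, inhibitors of basic helix-loop-helix factors, were both higher in the shRNA 2 table. *Id1*, on chromosome 2 from 152561987 to 152563146, had means of 334 and 390 and a log2 ratio of 0.15, with 11.5% of genes of like mean above it. *Id3*, on chromosome 4 from 135699412 to 135701670, had means of 59.6 and 83.2 and a log2 ratio of 0.41, or 1.33-fold higher. At its mean, under 100, ratios spread more widely, and 3.16% of 3134 genes of like mean were above it. *Id1* is also the more abundant, with 8.64-fold and 7.24-fold the level of *Id3* per kb in the shRNA 1 and shRNA 2 tables.

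**Figure D2:**
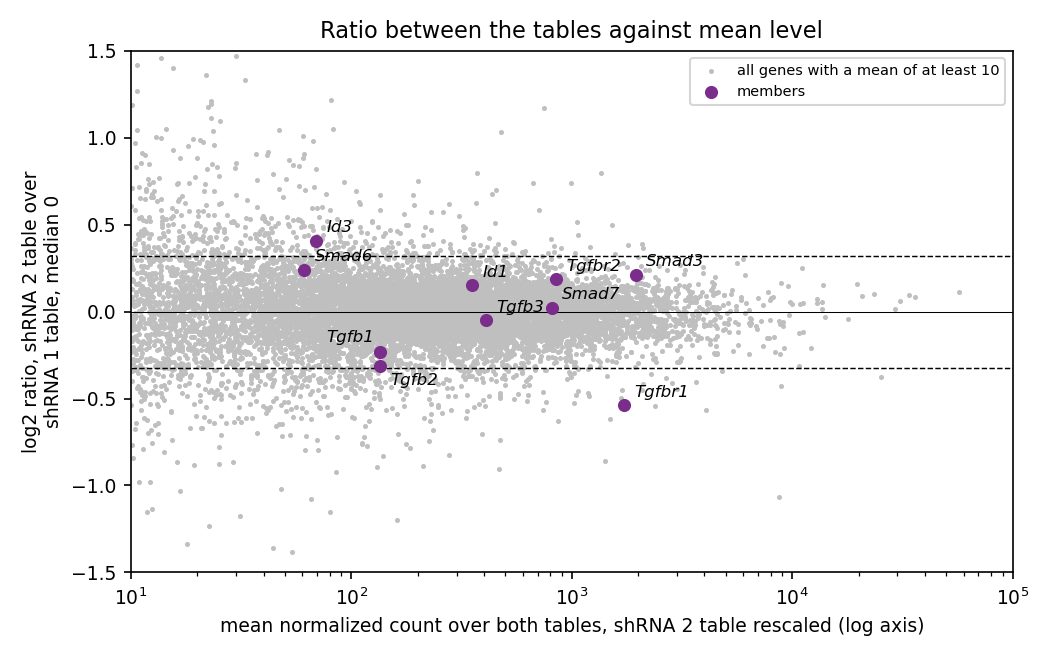
Log2 ratio of the shRNA 2 table to the shRNA 1 table, with the median gene at 0, against the mean normalized count over both tables (log axis), for the 10 members (large points) and 11561 genes averaging 10 or more (grey), 16 of which lie outside the axes. Dashed lines mark the 5:4 limit. *Tgfbr1* lies below the lower line, at the lower edge of the cloud at its level, *Id3* above the upper line, and the other 8 members between the lines.

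RefSeq promoter windows (GRCm38.p6, 250 bases before to 50 after a transcription start) were examined for 7 of the members, in 8 windows, since *Tgfbr1* has 2. They were searched on both strands for 3 motifs bound by Smads: the palindrome GTCTAGAC, the CAGA box core CAGACA and the GC-rich site GGCGCC. None of these letter strings contains another. The windows with a match are printed 5′ to 3′ to 20 bases after the start, with the match in capitals, because they include the receptor with the largest ratio and the ligand next to the 5:4 limit. The lines give, in this order, the upstream start of *Tgfbr1* (chr4:47352972-47353241, + strand), its downstream start (chr4:47385966-47386235, + strand), *Tgfb2* (chr1:186705970-186706239, - strand) and *Smad6* (chr9:64022040-64022309, - strand).
*Tgfbr1* upstream: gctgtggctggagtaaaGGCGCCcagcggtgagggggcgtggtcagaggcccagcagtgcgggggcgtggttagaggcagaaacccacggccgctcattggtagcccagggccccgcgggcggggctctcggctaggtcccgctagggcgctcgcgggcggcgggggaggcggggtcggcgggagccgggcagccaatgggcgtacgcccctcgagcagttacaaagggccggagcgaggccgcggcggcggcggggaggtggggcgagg
*Tgfbr1* downstream: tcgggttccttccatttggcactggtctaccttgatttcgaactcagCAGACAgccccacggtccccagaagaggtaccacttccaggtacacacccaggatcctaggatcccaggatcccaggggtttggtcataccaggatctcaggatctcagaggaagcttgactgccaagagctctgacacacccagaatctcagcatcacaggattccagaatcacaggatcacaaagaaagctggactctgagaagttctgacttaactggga
*Tgfb2*: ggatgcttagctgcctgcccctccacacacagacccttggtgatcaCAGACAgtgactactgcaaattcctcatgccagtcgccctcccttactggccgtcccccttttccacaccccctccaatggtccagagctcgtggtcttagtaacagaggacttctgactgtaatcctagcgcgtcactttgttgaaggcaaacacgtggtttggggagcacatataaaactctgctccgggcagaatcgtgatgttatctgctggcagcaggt
*Smad6*: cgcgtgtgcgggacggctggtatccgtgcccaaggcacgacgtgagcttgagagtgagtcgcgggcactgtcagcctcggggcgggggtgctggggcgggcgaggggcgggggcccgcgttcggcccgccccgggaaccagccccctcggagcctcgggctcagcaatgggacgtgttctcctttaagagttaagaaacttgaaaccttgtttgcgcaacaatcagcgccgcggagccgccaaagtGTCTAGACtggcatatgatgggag
The GC-rich site begins 233 bases before the upstream start of *Tgfbr1*, and the CAGA box core begins 203 bases before its downstream start and 204 bases before that of *Tgfb2*. The palindrome in *Smad6* begins 4 bases before its start and runs across it. Of all 32851 windows of the same length, with no chromosome left out, 0.213% hold the palindrome, 21.0% the CAGA box core and 11.9% the GC-rich site. The windows of *Tgfb1*, *Tgfbr2*, *Smad3* and *Id3* hold none of the 3 motifs. No window of *Tgfb3*, *Id1* or *Smad7* was searched, and whether these genes have a window or a match was not tested. A match describes letters in a window and was not tested for binding.

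The members were set beside 107 other genes of the pathway, grouped by role. Both tables list 72 of them and 1 table lists 1 more. The genes not listed were mostly ligands and antagonists, with 20 of 29 other ligands (among them *Bmp2*, *Bmp6* and *Bmp7*) and 7 of 14 extracellular antagonists (among them *Nog*, *Grem1* and *Dcn*) absent from both tables. In contrast, all 11 genes of latency and activation, all 5 other Smads and all 16 intracellular regulators are listed in both. Of the 46 other pathway genes averaging 100 or more in each table, 25 were lower and 21 higher in the shRNA 2 table, with a median log2 ratio of -0.01. This split turned without the scaling, to 16 lower and 30 higher, since many of these ratios lie near 0. *Ltbp1* and *Fn1* passed the 5:4 limit, both lower, and these 4.35% of the 46 genes are near the 4.18% of all genes at that mean. Like *Tgfbr1*, the genes *Ltbp1*, *Fn1* and *Itgav* lay outside the middle 95% of genes of like mean. Only 15 genes were of like mean to *Fn1*.

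Among the other ligands, *Inhbb*, which encodes an activin subunit, and *Gdf15*, a stress-induced cytokine, had the highest levels per kb (92.2 and 60.9 in the shRNA 1 table). Their log2 ratios were -0.32 and -0.15. Of the 8 other ligands that both tables list, *Inhbb* and *Gdf15* among them, 5 were lower and 3 higher in the shRNA 2 table. The rest all had means under 100 and went both ways. Lower were *Bmp8a* (-1.14, at means of 17.2 and 8.21), *Bmp4* (-0.56) and *Lefty1* (-0.09). The 3 higher were *Gdf11* (0.87, at means of 37.0 and 71.3), *Inhba* (0.22) and *Amh* (1.19, at means of 6.17 and 14.8). Of the genes that hold ligands latent or release them, *Ltbp3* had 718 per kb in the shRNA 1 table and *Itgav*, the integrin subunit alpha v, 335. *Ltbp1*, a latent TGF-beta binding protein, had mean normalized counts of 223 and 138 in the shRNA 1 and shRNA 2 tables and a log2 ratio of -0.76, the lowest of the 46. *Itgav* had 3605 and 4529 and a log2 ratio of 0.26, the highest of the 46. *Twsg1* and *Fstl3*, extracellular modulators of BMP and activin, led the antagonists, with log2 ratios of 0.11 and 0.10.

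Of the 7 other receptors and co-receptors with a mean of at least 100, all had log2 ratios between -0.14 and 0.07, a narrower range than that of *Tgfbr1* and *Tgfbr2*. The BMP receptors *Bmpr2* and *Bmpr1a* were the most abundant, at 336 and 138 per kb in the shRNA 1 table, with log2 ratios of -0.06 and 0.01. *Smad4*, the common partner of the other Smads, had 228 per kb in that table and a log2 ratio of 0.11, and *Smad2*, which shares its activating receptor with *Smad3*, had 111 per kb and a log2 ratio of -0.08. Per kb, *Smad3* was thus the most abundant Smad measured in the shRNA 1 table. Among intracellular regulators, *Fkbp1a*, whose product binds type I receptors, and *Rnf111*, a ubiquitin ligase acting on inhibitors of the pathway, had log2 ratios of -0.06 and 0.02.

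Of the 14 other targets listed in both tables, 10 were lower and 4 higher in the shRNA 2 table, or 8 lower and 6 higher without the scaling. Among the 9 that averaged 100 or more, 8 were lower and 1 higher, or 6 and 3 without the scaling. Their log2 ratios ran from -0.38 to 0.15, with *Klf10*, a TGF-beta-induced zinc finger factor, the highest. The median was -0.10, against -0.01 over all genes at that mean, and the difference was not tested. *Id2*, of the same family as *Id1* and *Id3*, had mean normalized counts of 800.0 and 833 in the shRNA 1 and shRNA 2 tables and a log2 ratio of -0.02, near the median gene. The most abundant were *Ctgf*, a matricellular protein, and *Fn1*, fibronectin, with 3477 and 3408 per kb in the shRNA 1 table. *Ctgf* had a log2 ratio of -0.15, and *Fn1*, with mean normalized counts of 28438 and 23047, had -0.38. These target genes also respond to other pathways, and their levels are no measure of TGF-beta activity by themselves.

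**Figure D3:**
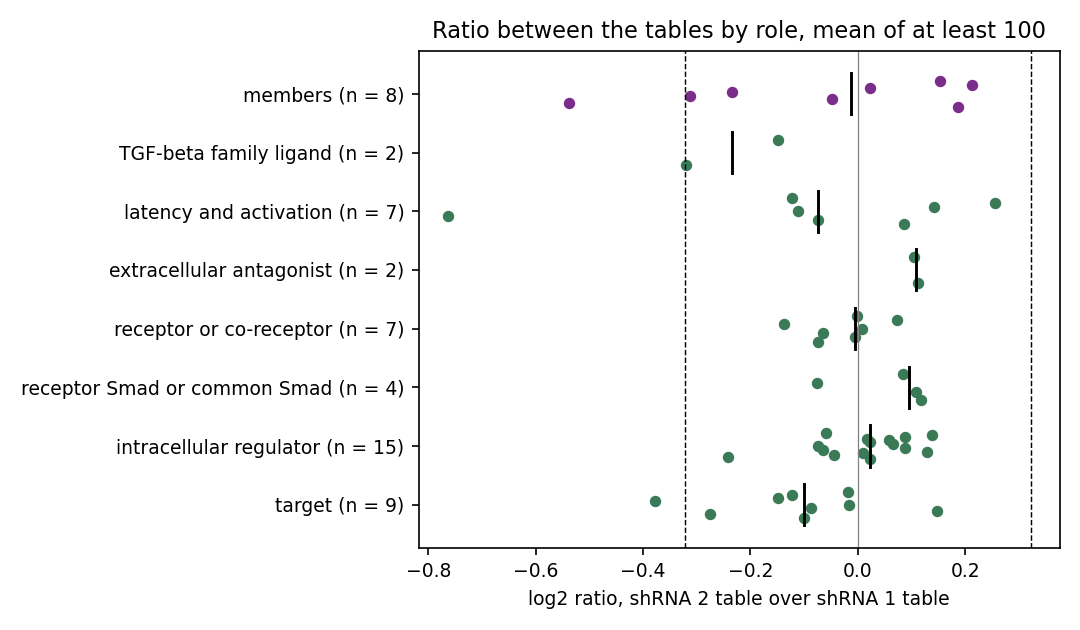
Log2 ratio of the shRNA 2 table to the shRNA 1 table for 8 members (top line) and 46 other pathway genes by role, each averaging 100 or more in each table; vertical bars are medians and dashed lines mark the 5:4 limit. *Tgfbr1*, *Ltbp1* and *Fn1* lie beyond the lower line, and no gene lies beyond the upper one.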

How the data were processed

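RNA was sequenced in 9 AML12 libraries, 3 each of control, *Srrm2* shRNA 1 and shRNA 2, grouped by the sample titles. The authors aligned trimmed reads against mm9 using TopHat2, restricted to unique and concordant pairs. HTSeq gave their counts per GENCODE M1 gene, and the authors normalized these and compared groups with DESeq2 version 1.8.2. The libraries are described as strand-specific, and the strand setting of the counting is not given in the sources used here. Each deposited table gives a signal per gene, the authors' mean of normalized counts over its control and hairpin libraries. Fold changes, standard errors, test statistics and p-values in the deposited tables are the authors' own comparisons and were not used. No value per library was used, so precision is unknown and nothing was tested. The labels of 2 control libraries name tables of other hairpins in place of that of shRNA 2, so that all 3 controls entered both tables is an assumption.

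All 13643 gene identifiers matched GENCODE M1, from which positions and exon lengths were taken. The ratio between tables was centred on its median and checked on simulated data. Both simulated tables shared their control libraries, so this check could not test whether the deposited tables do. Genes of like mean lie within 2-fold of a gene's mean over both tables. Alternatives covered the length, the ranking, the centring, the minimum mean and the fold. Pathway and marker lists were written by hand. The members and lists were chosen with earlier results of these data known. Named pathway genes are the 2 highest per kb in each role and the 2 lowest and 2 highest ratios at a mean of at least 100; *Srrm2* and the 3 highest markers of each type were also named, and other genes were named after their values were seen. The motifs were chosen after the levels were seen. Python 3.11.15, numpy 2.4.6, pandas 2.3.3 and matplotlib 3.10.9 were used.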

Additional observations from a re-analysis of the deposited data

How the results depend on the processing

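The limits of these values are that each is a pooled mean of control and hairpin libraries, with no spread between libraries. No replicate could be left out, and no paired analysis was possible because no value per library was used. The count of members past the 5:4 limit, 1 of 8, was 2 of 10 with a minimum mean of 10 (8.30% of all genes) and 2 of 10 with no minimum mean (13.3%), where *Id3* joined *Tgfbr1*. At 1.1-fold it was 6 of 8, against 28.7% of all genes. The 3 other ways of centring moved the log2 ratios by at most 0.07 and left the count at 1. Without centring 7 members were higher in the shRNA 2 table, as *Tgfb3* changed side (the other pathway genes went from 25 lower and 21 higher to 16 and 30), and 6 were with the other 2 centrings. Levels per kb with the length of the longest coding transcript stayed within 1.5-fold for all 10 members in both tables. Ranking without division by length moved *Tgfbr2* up, from percentile 72.6 to 87.1 in the shRNA 1 table, and *Id1* and *Id3* down, from 92.4 to 69.6 and from 43.7 to 32.4.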

Other observations

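Genes of the pathway that fell outside the naming rule had larger ratios at lower levels, and they are named here after their values were seen. *Lrrc32*, which tethers latent TGF-beta to the cell surface, had mean normalized counts of 148 in the shRNA 1 table and 91.6 in the shRNA 2 table, a log2 ratio of -0.77. Other latency genes were higher in the shRNA 2 table, among them *Ltbp4*, with 36.7 and 51.1 and a log2 ratio of 0.40, and *Ltbp2*, with 2.61 and 6.69 and 1.28. The ratio of *Ltbp4* lay within the middle 95% of genes of like mean. *Bmp4*, a BMP ligand, had 63.4 and 45.3 and a log2 ratio of -0.56, with 1.42% of genes of like mean below it. *Gdf11*, another ligand of the family, had the opposite ratio, 0.87, with 0.639% of genes of like mean above it. *Hamp*, the hepcidin gene and a BMP target in liver, had 4.01 and 16.8 and a log2 ratio of 1.99, both means far below 100. *Bmp8a* (17.2 and 8.21) and the receptor gene *Acvrl1* (4.41 and 2.45), also at low means, had log2 ratios of -1.14 and -0.92. None of these ratios was tested.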
